A study of Coprinopsis cinerea with 6 samples.

Results

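Of the 13615 gene models counted in gill RNA of the mushroom Coprinopsis cinerea, 79 formed the group of transcripts raised in the SRR1 mutant that is described here. They were chosen on the measured levels. A level is the count of read pairs divided by the library's total and multiplied by 1000000, abbreviated CPM. A transcript belonged to the group when its mean over the mutant libraries was at least 3 CPM and its lowest mutant library lay above its highest wild type library. The mutant mean plus 0.5 CPM also had to be at least 2.5 times the wild type mean plus 0.5 CPM, and "ratio" below means this quotient. Levels, ratios and the separation of the groups in these libraries are therefore a description of what was selected, and no test is given for them.

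RNA was taken from the gills of young fruiting bodies and sequenced in 6 libraries. The first group is an SRR1 mutant (n = 3 libraries), and the other group is the wild type (n = 3 libraries). The labels give neither the kind of mutation, nor the strain background, nor the age beyond the stage, and they do not say whether the libraries came from separate fruiting bodies. Both groups share the tissue and the protocol. The library totals ran from 18333896 to 20014106 read pairs in the mutant and from 18816585 to 24373334 in the wild type, so that 1 CPM stands for 18.3 to 24.4 read pairs. SRR1 itself could not be located among the gene models, because 0 of the 13615 identifiers matched the reference table of gene names, and the labelled tissue could not be checked against marker genes for the same reason.

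Gills are the plates under the cap of a mushroom. Their surface carries basidia, the cells in which nuclei fuse and undergo meiosis and on which the spores are formed, together with sterile supporting cells. A transcription factor can raise or lower the transcripts of the genes that it acts on, and loss of a factor can also change transcripts that lie further downstream or that belong to cells present in other proportions. In RNA from whole tissue, more cells of a type and more RNA per cell cannot be told apart. The title of the series links the factor to the shaping of spores. Because the files do not pair identifiers with names, transcripts are given by scaffold and position, and only the member with the largest ratio and the member with the highest mutant level are given by identifier.

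The raised transcripts were of low to moderate abundance. The mutant mean of the 79 members ran from 3.03 to 182 CPM, with a median of 15.1 CPM, and their wild type mean from 0.305 to 65.1 CPM, with a median of 4.26 CPM. The 10009 gene models with a mutant mean of at least 3 CPM had a median mutant level of 40.5 CPM, and 16 of the 79 members lay above that. The most abundant member ranked 1199 among the 10009. Only 4 members reached 100 CPM in the mutant. Together the members held 0.175%, 0.247% and 0.214% of the read pairs in mutant replicates 1, 2 and 3, against 0.0746%, 0.0533% and 0.0689% in wild type replicates 1, 2 and 3.

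The ratios were mostly modest. The median ratio of the members was 2.82, with quartiles at 2.64 and 3.35, and the largest was 11.9. A ratio of at least 3 was found for 30 members, of at least 4 for 14 and of at least 5 for 6. All 10009 models of at least 3 CPM in the mutant had a median log2 ratio of 0.21 on the same scaling, and the members had a median log2 ratio of 1.49. Of these 10009 models, 31.0% had their lowest mutant library above their highest wild type library, 0.839% reached the ratio of 2.5, and 0.789% were members. Within the members, the lowest mutant library was a median of 2.05 times the highest wild type library, and it was at least 2 times as high for 43 of them.

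**Figure D1:**
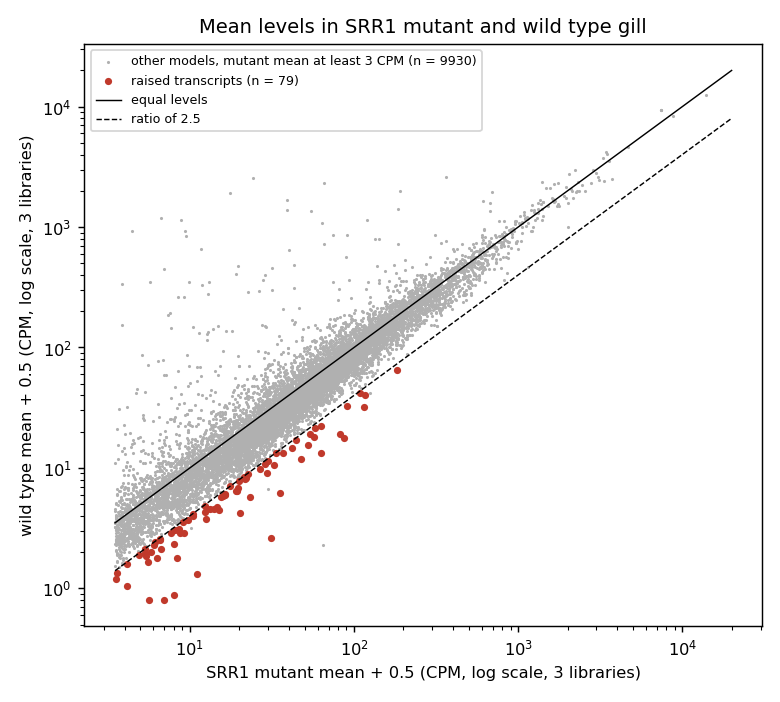
Mean level over the 3 SRR1 mutant libraries against the mean over the 3 wild type libraries, each plus 0.5 CPM on log axes, for the 10009 gene models of at least 3 CPM in the mutant. Each point is 1 gene model; the 79 raised transcripts (red) lie below the dashed line of a ratio of 2.5 and reach up to 182 CPM in the mutant, and the grey points far above the line of equal levels are transcripts lower in the mutant.

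Of the 5 largest ratios, 4 belonged to models in 1 stretch of scaffold_1 and in a duplicate of part of it on scaffold_2. The other, 9.13, belonged to a model on scaffold_5 whose mutant libraries were uneven. CopciAB_367424.T0, a 5-exon model with a coding length of 2280 bp that lies between 957081 and 959565 on scaffold_1 (minus strand), had the largest ratio. Its level was 38.3, 40.8 and 12.4 CPM in mutant replicates 1, 2 and 3, against 2.17, 2.21 and 1.97 CPM in wild type replicates 1, 2 and 3. Mutant replicate 3 was far below the other mutant libraries, and even so it was 5.63 times the highest wild type library, the widest gap among the members. The ratio ran from 9.88 to 15.3 when each library was left out in turn.

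Next to it, on the plus strand from 960158 to 961584 and facing away from it across 592 bp, lies a model of 6 exons. It had 7.58, 9.29 and 2.54 CPM in mutant replicates 1, 2 and 3, against 0.123, 0.526 and 0.266 CPM in wild type replicates 1, 2 and 3. The wild type values rest on 3, 10 and 5 read pairs, so this transcript was barely detected in the wild type. The following model on the plus strand, from 965006 to 966793, had no read pair in any of the 6 libraries, where a count of 0 allows up to 0.123 to 0.164 CPM in a library (3 counts, counting error only). The third member of the stretch is a model with 1 exon of 1986 bp on the minus strand from 974108 to 976093. It had 35.1, 37.4 and 32.2 CPM in mutant replicates 1, 2 and 3, against 7.84, 5.997 and 3.40 CPM in wild type replicates 1, 2 and 3. Unlike the divergent pair, this transcript was even across the mutant libraries, and its ratio was 5.67.

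The first 3 of these models have counterparts on scaffold_2 in the reverse order and orientation. A model on the plus strand from 58183 to 60667 has the same length in each of its 5 coding exons as CopciAB_367424.T0, namely 91, 300, 998, 303 and 588 bp. Its level was 14.3, 13.8 and 3.73 CPM in mutant replicates 1, 2 and 3, against 0.862, 1.16 and 0.425 CPM in wild type replicates 1, 2 and 3. The model on the minus strand from 56170 to 57535 shares 5 of 6 exon lengths with the divergent partner on scaffold_1, and only the first exon differs, with 80 bp here and 143 bp there. It had 5.89, 7.34 and 2.07 CPM in mutant replicates 1, 2 and 3, against 0.123, 0.526 and 0.266 CPM in wild type replicates 1, 2 and 3. The gap between the pair is 647 bp on scaffold_2. A model from 50640 to 52427 has the exon lengths of the silent model on scaffold_1 and was at 0 in each library as well. Whether the single-exon member of scaffold_1 has a counterpart was not examined. The scaffold_2 stretch was viewed only from 50640 on, and the search for copies took models of at least 3 exons.

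Read pairs that align to more than 1 place were counted at each of them, and the copies show how far their counts are shared. The 6-exon models had identical counts in each wild type library, 3, 10 and 5 read pairs. In mutant replicates 1, 2 and 3 the scaffold_1 model had 139, 186 and 49 read pairs, and the scaffold_2 model 108, 147 and 40. The 5-exon models differed more. The scaffold_1 copy had 2.68, 2.96 and 3.33 times the read pairs of the scaffold_2 copy in mutant replicates 1, 2 and 3, against 2.52, 1.91 and 4.63 times in wild type replicates 1, 2 and 3. How much each copy was transcribed cannot be told apart from these counts, and the separate values of these 4 members are uncertain.

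**Figure D2:**
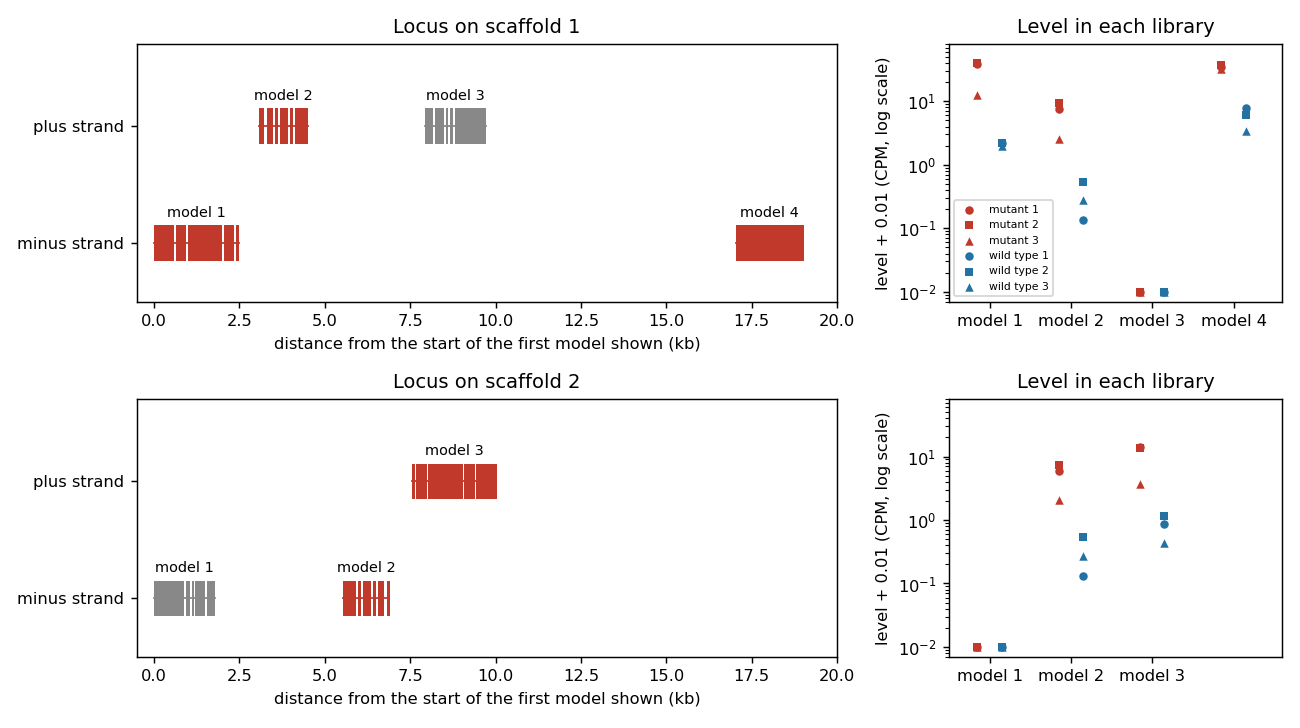
Coding exons (boxes) of the models at the scaffold_1 locus (above) and the scaffold_2 locus (below) on a kb scale from the first model shown, with the level of each model in every library at the right (CPM plus 0.01, log axis). Raised transcripts are red in the maps; models 1, 2 and 3 of scaffold_1 correspond to models 3, 2 and 1 of scaffold_2, the grey model is at 0 in all 6 libraries at both loci, and mutant replicate 3 is the lowest mutant library for all of the raised copies.

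The raised transcripts that were most abundant in the mutant are scattered over the genome, on scaffolds 1 to 6. The highest level was that of CopciAB_438072.T0, a 5-exon model with a coding length of only 315 bp between 1298764 and 1299321 on scaffold_3 (plus strand). It had 165, 229.6 and 150.4 CPM in mutant replicates 1, 2 and 3, against 56.6, 40.6 and 98.0 CPM in wild type replicates 1, 2 and 3. Wild type replicate 3 came within 1.53-fold of the lowest mutant library. Per kb of coding length it was again the highest member, with a mean of 577 CPM per kb in the mutant and 207 CPM per kb in the wild type.

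The second in abundance is a single-exon model of 495 bp on scaffold_5 from 2703358 to 2703852. It had 100.4, 108 and 138 CPM in mutant replicates 1, 2 and 3, against 51.4, 12.2 and 54.7 CPM in wild type replicates 1, 2 and 3. Here wild type replicate 2 was low, and without it the ratio was 2.16. The third, a 12-exon model on scaffold_1 from 1705372 to 1706992, had compact groups. It had 102, 143 and 99.9 CPM in mutant replicates 1, 2 and 3, against 30.7, 38.0 and 26.5 CPM in wild type replicates 1, 2 and 3. Its ratio was 3.59. A 5-exon model on scaffold_3 from 680369 to 682091 had 91.2, 106 and 126 CPM in mutant replicates 1, 2 and 3, against 39.1, 57.2 and 27.7 CPM in wild type replicates 1, 2 and 3.

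The most even member in the mutant was a 3-exon model of 552 bp on scaffold_5 from 945300 to 945970. It had 92.3, 87.5 and 91.4 CPM in mutant replicates 1, 2 and 3, against 45.7, 18.1 and 33.0 CPM in wild type replicates 1, 2 and 3. Its wild type libraries spread by 2.53-fold and its mutant libraries by 1.05-fold. Also even, at lower levels, were a 2-exon model on scaffold_6 from 1643049 to 1643340 and a 3-exon model on scaffold_4 from 3141143 to 3141924. The first had 19.7, 18.4 and 19.9 CPM in mutant replicates 1, 2 and 3, against 6.69, 6.47 and 8.77 CPM in wild type replicates 1, 2 and 3. The second had 8.13, 8.79 and 8.86 CPM in mutant replicates 1, 2 and 3, against 3.73, 2.58 and 2.92 CPM in wild type replicates 1, 2 and 3.

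Per kb of coding length, the short models came to the front. A single-exon model of 183 bp on scaffold_6 from 490327 to 490509 had a mean of 447 CPM per kb in the mutant and 101 CPM per kb in the wild type. In CPM it had 65.1, 70.3 and 110.1 in mutant replicates 1, 2 and 3, against 24.2, 6.42 and 24.7 in wild type replicates 1, 2 and 3. A longer member lay far below these short models on this scale, though above the median of the members. A 19-exon model of 2997 bp on scaffold_5 from 2633829 to 2637809 had 53.6, 60.8 and 57.8 CPM in mutant replicates 1, 2 and 3, against 22.8, 24.5 and 15.04 CPM in wild type replicates 1, 2 and 3. Per kb that came to 19.1 CPM in the mutant and 6.93 CPM in the wild type. The median of the members was 14.8 CPM per kb in the mutant and 4.62 CPM per kb in the wild type, where all 10009 models had medians of 29.7 CPM per kb in the mutant and 26.9 CPM per kb in the wild type.

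Other members had compact libraries in both groups. A single-exon model of 1029 bp on scaffold_7 from 2023917 to 2024945 had 7.53, 7.29 and 8.86 CPM in mutant replicates 1, 2 and 3, against 1.27, 1.26 and 1.33 CPM in wild type replicates 1, 2 and 3. Its lowest mutant library was 5.49 times its highest wild type library, a gap exceeded only by that of CopciAB_367424.T0 among the members. A 3-exon model on scaffold_4 from 3477976 to 3479663 had 16.4, 26.5 and 25.7 CPM in mutant replicates 1, 2 and 3, against 5.42, 5.94 and 4.46 CPM in wild type replicates 1, 2 and 3. Of the 79 members, 7 had a wild type mean under 1 CPM.

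**Figure D3:**
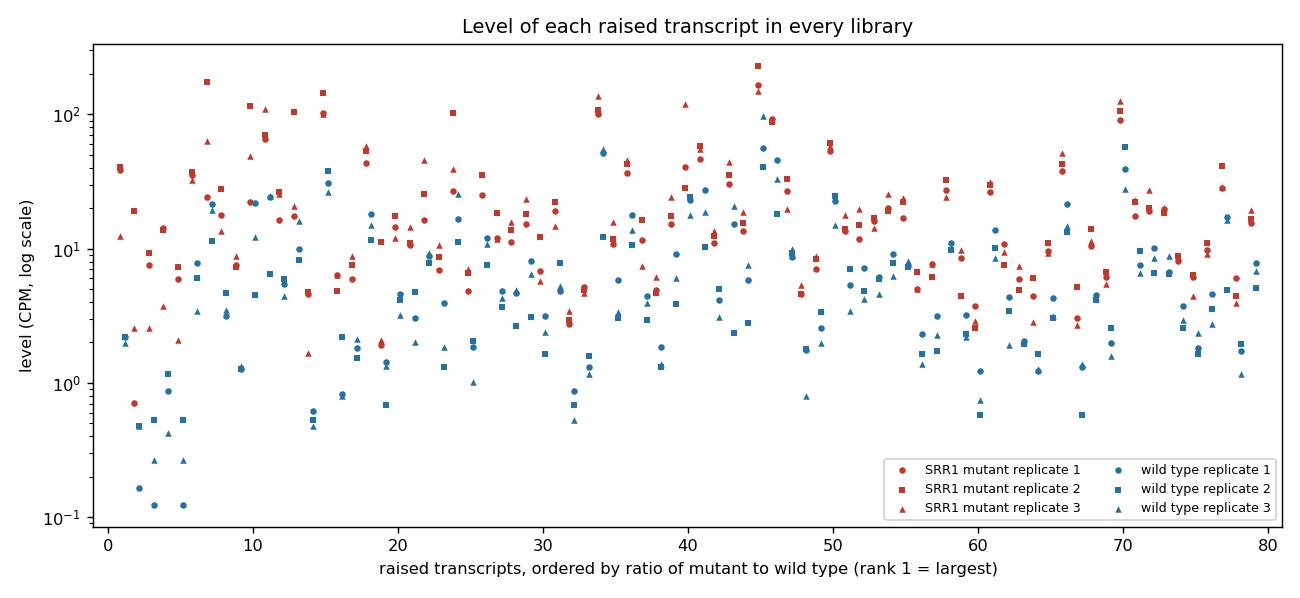
Level of each of the 79 raised transcripts in every library (CPM, log axis), ordered from the largest ratio at the left to the smallest at the right; red symbols are the 3 SRR1 mutant libraries and blue symbols the 3 wild type libraries. The lowest red symbol lies above the highest blue one for each transcript because the choice required it, and the red symbols spread widest among the first ranks.

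The mutant libraries did not carry the rise evenly. Over the members, the highest mutant library was a median of 1.45 times the lowest, against 1.23 times over the 10009 models. In 18 of the 79 members (22.8%) the mutant libraries differed by at least 2-fold, against 2.96% of the 10009 models, and 10 of the 14 members with a ratio of at least 4 were among these 18. Mutant replicate 1 was the lowest mutant library in 42 members (53.2%), against 38.1% of the 10009 models. It was the highest in 8 members (10.1%), against 28.5% of the 10009 models. A single high library raises the mean that the choice used, so a share above that of all models is partly built into the group. The members also had a lower median mutant level than the 10009 models, 15.1 against 40.5 CPM. The part of level in this unevenness was not tested.

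Mutant replicate 2 stood out in 6 members, where it was at least 2 times both other mutant libraries. The widest spread was in a 2-exon model of 273 bp on scaffold_5 from 1371562 to 1371893, with 0.709, 19.1 and 2.54 CPM in mutant replicates 1, 2 and 3, against 0.164, 0.473 and 0.478 CPM in wild type replicates 1, 2 and 3. Mutant replicate 2 was 27.0 times mutant replicate 1, and the ratio was 9.13 with that library and 2.44 without it. Mutant replicate 1 held 13 read pairs of this transcript. A 5-exon model on scaffold_2 from 2075610 to 2076683 had 24.4, 173 and 63.6 CPM in mutant replicates 1, 2 and 3, against 21.4, 11.4 and 19.2 CPM in wild type replicates 1, 2 and 3. Its lowest mutant library barely cleared the wild type, and without mutant replicate 2 its ratio was 2.49 in place of 4.90.

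The remaining members of this kind lie on scaffold_8, scaffold_4 and scaffold_3. The 3-exon model on scaffold_8 from 468765 to 469202 had 17.5, 104 and 20.9 CPM in mutant replicates 1, 2 and 3, against 9.93, 8.15 and 16.2 CPM in wild type replicates 1, 2 and 3. Without mutant replicate 2 its ratio was 1.65. The 9-exon model on scaffold_4 from 3677687 to 3679638 had 22.4, 115 and 49.3 CPM in mutant replicates 1, 2 and 3, against 21.7, 4.52 and 12.3 CPM in wild type replicates 1, 2 and 3. The lowest mutant and the highest wild type library of this transcript differed by 1.03-fold, the narrowest gap in the group. For the 2-exon model on scaffold_4 from 2761037 to 2761560 and the 3-exon model on scaffold_3 from 1513823 to 1514742, the ratio without mutant replicate 2 was 1.51 and 1.85.

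Mutant replicate 3 was low in 5 members, with no more than 0.5 times the level of either other mutant library. These were the 4 models of the duplicated locus and a 2-exon model on scaffold_11 from 757742 to 759041. The last had 4.58, 4.75 and 1.66 CPM in mutant replicates 1, 2 and 3, against 0.615, 0.526 and 0.478 CPM in wild type replicates 1, 2 and 3. It lies on another scaffold and has no copy of equal exon lengths, yet its mutant libraries stood in nearly the same proportions as those of CopciAB_367424.T0. In 1 member, a 14-exon model on scaffold_2 from 3327691 to 3329632, mutant replicate 3 was at least 2 times both others. It had 40.2, 28.1 and 119 CPM in mutant replicates 1, 2 and 3, against 23.2, 24.4 and 17.9 CPM in wild type replicates 1, 2 and 3, and without mutant replicate 3 its ratio was 1.55.

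**Figure D4:**
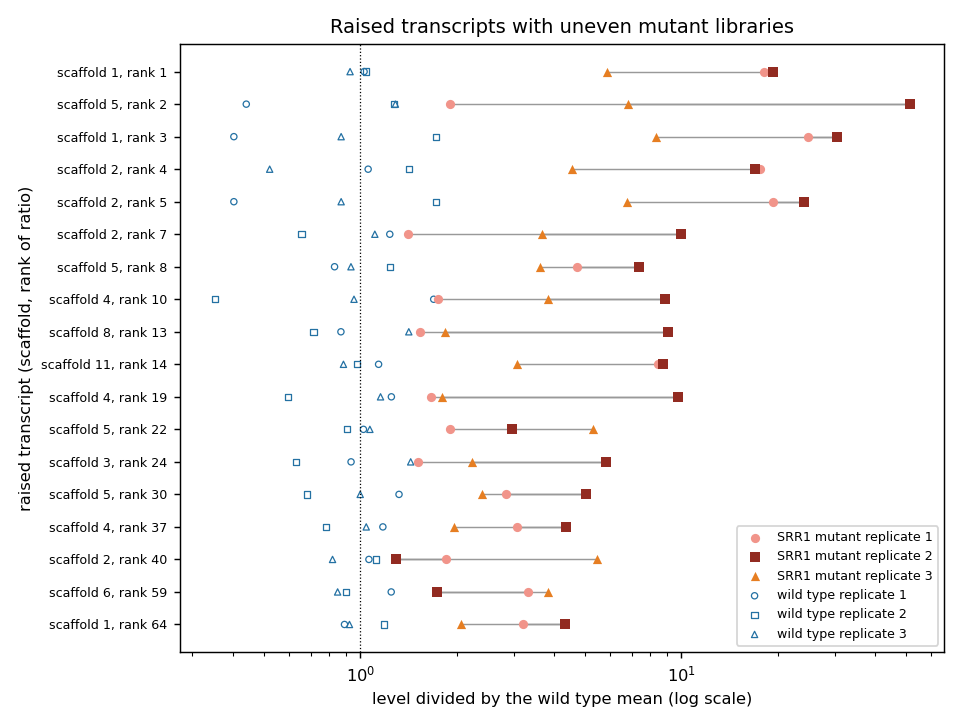
The 18 raised transcripts whose mutant libraries differed by at least 2-fold, each library given as its level divided by the wild type mean of that transcript (log axis). Filled symbols are SRR1 mutant libraries and open symbols wild type libraries; mutant replicate 2 (dark squares) is the highest mutant library in 14 of the 18, and mutant replicate 3 (triangles) trails in the models of the duplicated locus.

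The wild type libraries were uneven for other members. They differed by at least 2-fold in 28 of the 79 members (35.4%), of which 21 were even in the mutant, against 19.5% of the 10009 models. Even in both groups were 40 members (50.6%), against 78.7% of the 10009 models. A single low wild type library lowers the mean that the choice used. Shares of uneven or low wild type libraries above those of all models are thus partly built into the group. The members also had lower wild type levels, with a median of 4.26 CPM against 35.9 CPM in the 10009 models. The part of level in these shares was not tested. Wild type replicate 2 was the lowest wild type library in 42 members (53.2%), against 31.8% of the 10009 models. In 8 members (10.1%) it had no more than 0.5 times the level of either other wild type library, against 2.81% of the 10009 models. The widest case was a 6-exon model on scaffold_5 from 77577 to 79223, with 30.4, 35.3 and 44.1 CPM in mutant replicates 1, 2 and 3, against 15.3, 2.37 and 20.7 CPM in wild type replicates 1, 2 and 3. Its ratio was 2.79, and 2.001 without wild type replicate 2. The 5-exon model of 249 bp on scaffold_1 from 746556 to 747025 had 28.0, 41.6 and 28.9 CPM in mutant replicates 1, 2 and 3, against 17.1, 4.89 and 16.4 CPM in wild type replicates 1, 2 and 3. In both, wild type replicates 1 and 3 lay much nearer to the mutant than wild type replicate 2 did.

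With each of the 6 libraries left out in turn, 74 of the 79 members kept a ratio of at least 2 throughout, and 30 kept one of at least 2.5. The number at or above 2.5 was 74, 59 and 65 without mutant replicates 1, 2 and 3, and 77, 61 and 61 without wild type replicates 1, 2 and 3.

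The edge of the group was not a break in the data. The members of lowest ratio were models on scaffold_4 from 2224604 to 2226284, on scaffold_9 from 1516063 to 1517397 and on scaffold_1 from 746556 to 747025, with ratios of 2.5, 2.506 and 2.508. Just outside, with the other criteria met, were models on scaffold_7 from 108288 to 108576, on scaffold_7 from 499321 to 500129 and on scaffold_5 from 514813 to 515562, with ratios of 2.498, 2.498 and 2.497. A further 267 models with separated groups had a ratio from 2 to under 2.5. The separation of the libraries kept out 5 models, in all of which mutant replicate 2 was the highest mutant library. The steepest of them, a model of 231 bp on scaffold_3 from 3283319 to 3283733, had 1.91, 173 and 18.1 CPM in mutant replicates 1, 2 and 3, against 1.39, 1.105 and 2.82 CPM in wild type replicates 1, 2 and 3. Its ratio of 28.6 exceeded that of any member, and it rested on mutant replicates 2 and 3.

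Outside the duplicated locus, counterparts of like exon structure stayed below the ratio that defined the group. A copy with the same length of every exon, among models of at least 3 exons, existed for 2 of the 79 members (2.53%), against 82 of the 10009 models (0.819%). The 2 members are copies of each other at the duplicated locus, where shared read pairs were counted at both places. The share of the members thus rests on a single duplication. Allowing 1 exon to differ among models of at least 4 exons, 6 members had a counterpart, and 4 of these are the models of the duplicated locus. The 14-exon member on scaffold_2 from 3327691 has such a counterpart from 3332540 to 3334445 on the same scaffold. That model had 11.8, 12.04 and 9.43 CPM in mutant replicates 1, 2 and 3, against 9.15, 11.3 and 12.5 CPM in wild type replicates 1, 2 and 3, so its groups overlapped. The other is a 5-exon member on scaffold_6 from 1933944 to 1935192, with 7.09, 8.39 and 8.75 CPM in mutant replicates 1, 2 and 3, against 2.54, 3.37 and 1.97 CPM in wild type replicates 1, 2 and 3. Its counterpart from 1937665 to 1938831 had 18.7, 24.6 and 19.4 CPM in mutant replicates 1, 2 and 3, against 14.1, 11.1 and 16.1 CPM in wild type replicates 1, 2 and 3. The libraries of this counterpart were also fully separated, but by less than the group required.

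Some members neighbour another member. With at most 2 other models between them, 7 of the 79 (8.86%) had a neighbour in the group. They were the 3 on scaffold_1, the pair on scaffold_2 and a pair on scaffold_7. The scaffold_2 pair belongs to the duplicated locus, and 5 members were left when only 1 locus of each group of copies was kept. The share for a set of equal size drawn from all models was not worked out, so the count is not read as low or high. The scaffold_7 pair lies on the plus strand. Its 2-exon model from 2268220 to 2269090 had 6.16, 6.65 and 5.44 CPM in mutant replicates 1, 2 and 3, against 1.97, 2.58 and 1.59 CPM in wild type replicates 1, 2 and 3. The 3-exon model from 2269671 to 2270790 had 17.6, 22.1 and 23.0 CPM in mutant replicates 1, 2 and 3, against 7.51, 9.57 and 6.54 CPM in wild type replicates 1, 2 and 3.

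The models just before this pair went the other way, which was noticed after their values were seen. A 10-exon model on the minus strand from 2264313 to 2266800 had 4.09, 6.10 and 2.54 CPM in mutant replicates 1, 2 and 3, against 23.0, 15.4 and 95.8 CPM in wild type replicates 1, 2 and 3. It fell by a log2 fold change of 3.63 ± 0.67 SE in the mutant (edgeR quasi-likelihood test, two-sided, adjusted p = 0.00667). The 2-exon model before it, from 2263359 to 2264248 on the plus strand, has exons of 262 and 545 bp, and the raised 2-exon member has exons of 259 and 545 bp. It had 0.927, 0.700 and 0.570 CPM in mutant replicates 1, 2 and 3, against 1.93, 4.998 and 6.64 CPM in wild type replicates 1, 2 and 3, and it fell by a log2 fold change of 2.82 ± 0.51 SE (edgeR, adjusted p = 0.00566). Of all 11683 tested genes, 6.99% were called lower. In this stretch, models of nearly the same exon lengths thus stood higher and lower in the mutant. The lowered models lie 64 bp apart on opposite strands, end to end, and the counting ignored the strand. Whether read pairs of the 10-exon transcript were counted at the lowered 2-exon model was not tested.

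The remaining 72 members had no such neighbour. Members were found on scaffolds 1 to 12, where they made up between 0.407% (scaffold_10) and 1.25% (scaffold_6) of the models of at least 3 CPM. No member lay on scaffold_13, where 235 models reached that level. Within 100000 bp of the outermost model of a scaffold lay 5 members (6.33%), against 4.15% of the 10009 models. The 5 include the scaffold_2 pair of the duplicated locus, where read pairs shared with scaffold_1 were counted as well. The plus strand held 42 members and 0 members overlapped another model.

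Raised transcripts came from shorter models than the rest. The median coding length was 816 bp in the members and 1284 bp in the 10009 models, while the median exon number was 5 in both. Of the members, 10 (12.7%) had at most 300 coding bp, against 4.77% of the 10009 models. Single-exon models made up 12.7% of the members and 7.91% of the 10009 models. Among the 1001 shortest models, 17 were members (1.698%), and among the 1001 longest, 3 (0.300%).

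Coding length also moved with the libraries. The median log2 ratio of all models was 0.34 among the 1001 shortest and 0.04 among the 1001 longest, so short models were shifted toward the mutant as a whole. Spearman's rho across the 10009 models, between coding length and how far a library lay from the average library, was -0.00922, -0.175 and -0.208 in mutant replicates 1, 2 and 3, against 0.265, 0.281 and -0.199 in wild type replicates 1, 2 and 3. Wild type replicate 3 resembled mutant replicates 2 and 3 in this respect. Each ratio was also divided by the median ratio of models of like coding length, a setting chosen after the data were seen. With it, 32 models met the rule in place of 79. This division also removes the overall shift toward the mutant. TMM factors (below), which take no account of length, gave 33. The part of the trend with coding length in the length of the raised transcripts was not tested.

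**Figure D5:**
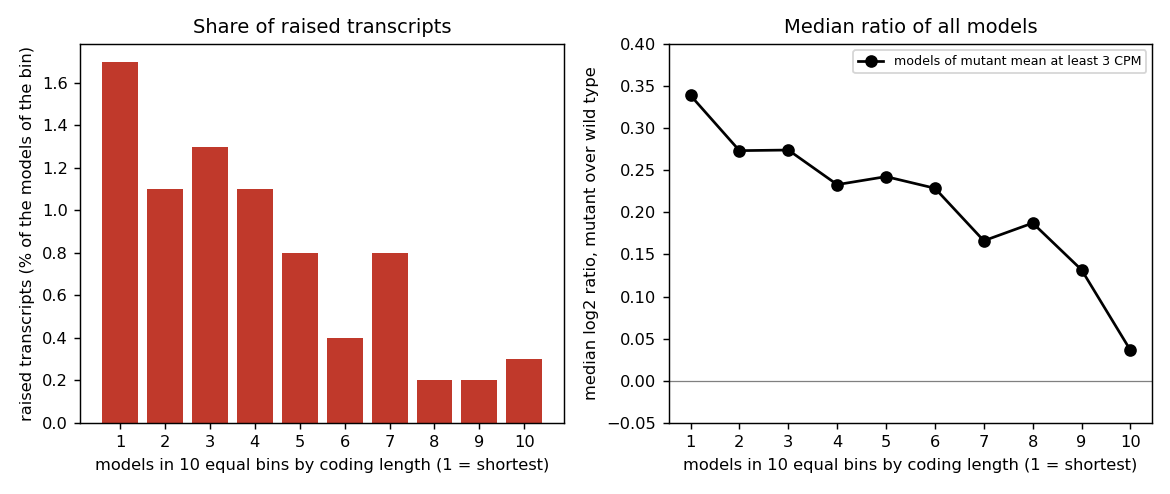
Raised transcripts as a percentage of the gene models in each of 10 equal bins of coding length (left), and the median log2 ratio of SRR1 mutant over wild type of all models in the same bins (right), for the 10009 models of at least 3 CPM in the mutant. The share is 1.698% in the bin of the shortest models and 0.300% in that of the longest, and the median log2 ratio is 0.34 and 0.04 in the same bins.

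Scaling decided how many transcripts met the rule. With TMM factors, which scale each library to the bulk of its genes, the median ratio of the 10009 models was 1.01, the median ratio of the members 2.49, and their lowest ratio 2.17. All 79 members had a TMM-scaled ratio of at least 2, and 33 models met the whole rule, all 33 of them among the 79. The TMM factors were 1.06 to 1.07 in the mutant and 0.883 to 0.975 in the wild type. With them no ratio could rise, no other model could enter, and a ratio of 2.5 could not fall below 2. That all members stayed above 2 and that all 33 were members thus follows from the factors. In edgeR's quasi-likelihood fit over all 11683 tested genes, with TMM factors and Benjamini-Hochberg adjustment at 0.05, 70 of the 79 members were called higher in the mutant, against 3.25% of all tested genes and 3.67% of the models of at least 3 CPM. Counting either direction, 10.2% of all tested genes were called. The rule used the same contrast, so nothing is read from this count. The 9 members not called were 5 with an uneven mutant, among them the members on scaffold_8 and scaffold_4 described above, and 4 that were uneven in the wild type only. Without mutant replicates 1, 2 and 3 in turn, 50, 44 and 39 members were called, and 96, 53 and 64 of all genes were called higher in the same fits.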

How the data were processed

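The authors deposited 1 table of raw counts of read pairs per gene model for the 6 libraries; per the file headers, the counter was featureCounts 2.0.1. The counting command names 7 alignments, a second one of wild type replicate 3 among them, while 6 count columns were deposited. Only these 6 were used. Pairs were counted over coding exons with a minimum fragment length of 40 bp, multi-mapping reads included and without a strand option. The submitters' processing notes name STAR 2.6.1. No source used here names the genome build, and positions are those of the table. All coding lengths are multiples of 3, so they hold no untranslated regions.

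Columns were matched to samples by the sample descriptions and grouped by the titles. CPM used column sums over all models, with no other scaling. edgeR 4.0.16 in R 4.3.3 fitted genotype alone over all genes kept by its default filter (11683), with TMM factors. SE is the size of the log2 fold change over the root of the F statistic. DESeq2 1.42.0, limma-voom (limma 3.58.1), other scalings, filters, offsets and thresholds, a replicate block and the removal of single libraries were alternatives. Simulated counts were used to test the edgeR fit. The labels do not say that libraries are biological replicates, so p-values measure only the spread between these samples, perhaps a technical one.

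The members and the definitions of copies, neighbours and evenness (uneven means at least 2-fold between libraries) were chosen with earlier results of these data known. Identifiers are printed for the member of highest mutant level and the member of largest ratio. Others are given by position when they were among the 10 of highest level, of highest level per kb or of largest ratio, or neighbours, copies, extremes of evenness or at the threshold. The 0 matches among 13657 reference genes left no gene lists to describe.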

Additional observations from a re-analysis of the deposited data

How the results depend on the processing

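The number of raised transcripts, 79, moved by over 1.5 times under 9 of the 18 alternatives run for it. It was 33 with TMM factors, 30 with RLE factors, 35 with an offset of 2 CPM in place of 0.5 CPM, 49 with a mutant mean of at least 10 CPM, 346 with a ratio of at least 2 and 14 with a ratio of at least 4. It was 32 relative to models of like coding length, and 74 to 142 with 1 library left out. Smaller moves gave 54 with upper quartile factors, 111 with an offset of 0.1 CPM, 89 with a mutant mean of at least 1 CPM, 77 without like-exon copies and 61 without members of uneven mutant libraries. The median log2 ratio of the members, 1.49, was 1.32 with TMM factors, 1.29 with RLE factors, 1.28 with an offset of 2 CPM and 1.45 to 1.63 with 1 library left out. Members called higher by edgeR numbered 39 to 72 with 1 library left out. Its alternatives with all libraries called 68 to 77 members, except 52 of 59 tested with a filter of at least 5 CPM in 3 libraries. DESeq2 called 73 members and 566 of all genes higher, and limma-voom called 67 members and 389 of all genes higher. All genes called higher by edgeR, 380, came to 1041 when scaled by library size alone, 667 under upper quartile scaling, and 53 to 739 with a single library removed. With a replicate block they came to 225, and 68 members were called. Same-numbered libraries did not deviate together (r of 0.0785, -0.0530 and -0.0368 for numbers 1, 2 and 3), and not every library correlated best with its own number. CopciAB_367424.T0 was called under every alternative run for it, with log2 fold changes of 3.37 to 4.003. CopciAB_438072.T0 was called under each alternative with all 6 libraries, but not without mutant replicates 1, 2 or 3 or wild type replicate 1 (log2 fold changes of 1.29, 1.04, 1.36 and 1.15). Both were picked from a group chosen on the same contrast, so nothing is read from these calls. The counts of CopciAB_367424.T0 can also include read pairs shared with its scaffold_2 copy. The cause of the moves under the alternatives was not tested. Levels under 1 CPM rest on fewer than 25 read pairs, so the low wild type values of the steepest members are imprecise.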

Other observations

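Models next to a raised transcript that were not members themselves numbered 151, of which 126 had at least 3 CPM in the mutant. Their median log2 ratio was 0.34, and that of all 10009 models of this level was 0.21. Of the 126, edgeR called 12 (9.52%) higher in the mutant, where 3.67% of all models of this level were called higher. It called 6 of the 126 lower, where 6.99% of all tested genes, with no limit on level, were called lower. These shares are a description, and no test was made of them.

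Models whose identifiers carry a number of at least 7 digits made up 17 of the 79 raised transcripts (21.5%) and 7.34% of the 10009 models. No source used here says what this series of numbers stands for. On the same scaling and with the same thresholds turned round, 304 models were lower in the mutant, with at least 3 CPM in the wild type, a ratio of at most 1 to 2.5 and the highest mutant library below the lowest wild type library.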
